A study of Mus musculus with 12 samples.

Results

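The 7 Schlafen genes Slfn1, Slfn2, Slfn3, Slfn4, Slfn5, Slfn8 and Slfn9 were followed in mouse microglia in which ZEB1, a zinc-finger transcription factor known mainly as a repressor, was overexpressed or knocked down. All probes whose accession maps to these gene symbols were taken, 9 on one array design and 11 on the other, and the genes are 7 of 38691 genes or accessions that were detected on either design. The family was chosen from results of one comparison, ZEB1 overexpression after stroke over wild type after stroke. In that comparison the values and the counts of limma calls below are therefore a description and support nothing. The other comparisons were tested, but the genes, the lists and the tests were chosen with earlier results of these data known.

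RNA came from brain microglia of male mice aged 8 weeks, enriched by magnetic sorting with a CX3CR1 kit, and was labelled with Cy3 and hybridised to single-colour Agilent arrays. The 6 groups held 2 samples each. They were ZEB1-overexpression microglia after transient middle cerebral artery occlusion (ZEB1-OE after), ZEB1 knock-down microglia after it (ZEB1-KD after), wild-type microglia after it (WT after), and the same 3 genotypes before it (ZEB1-OE before, ZEB1-KD before, WT before). Transient middle cerebral artery occlusion, tMCAO, is a model of ischaemic stroke in which a brain artery is blocked and then reopened. The promoter that drives the ZEB1 transgene, the way the knock-down was made, the time after tMCAO, and whether the 2 samples of a group came from separate animals are not stated in the labels. The p-values therefore rest on the spread between these samples, and that spread could be technical. Standard errors (SE), intervals and p-values are those of limma. It pools a gene's spread over the groups fitted on a slide and draws it toward the spread typical of all genes. An SE is thus not the spread of the compared arrays alone.

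Schlafen genes are a rapidly evolving mammalian family, and several are switched on by type I interferon, which acts on genes through interferon-stimulated response elements in their promoters. The short forms, Slfn1 and Slfn2, are known from lymphocytes, where Slfn1 slows proliferation and loss of Slfn2 disturbs the quiescence of T cells and monocytes. Slfn3 and Slfn4 are intermediate in size: Slfn4 is an interferon-inducible gene of macrophages and other myeloid cells, and Slfn3 has been studied in intestinal differentiation in rodents. The long forms, Slfn5, Slfn8 and Slfn9, carry a helicase-like C-terminal region. In the RefSeq annotation of assembly GRCm38.p6 the 7 genes lie on chromosome 11 in the order Slfn5, Slfn9, Slfn8, Slfn2, Slfn1, Slfn4, Slfn3, with Slfn10-ps between Slfn8 and Slfn2. Slfn3 and Slfn4, and Slfn8 and Slfn9, are close paralogues, and whether a probe of one also binds the transcript of its paralogue was not tested.

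The promoters of 5 Schlafen genes are shown, because the family is known for its response to interferon. Those of Slfn1 and Slfn3, both called higher in ZEB1-OE after over WT after, are not shown, and their matches are given below. The sequences are the 250 bases before each annotated start, from RefSeq with coordinates in GRCm38.p6, written 5′ to 3′ along the gene, and capitals mark matches to GAAANNGAAA (the core of the interferon-stimulated response element) and AANNGAAA (an interferon regulatory factor element) on either strand. A match to GAAANNGAAA always contains a match to AANNGAAA.
Slfn4, chr11:83174936-83175185, plus strand: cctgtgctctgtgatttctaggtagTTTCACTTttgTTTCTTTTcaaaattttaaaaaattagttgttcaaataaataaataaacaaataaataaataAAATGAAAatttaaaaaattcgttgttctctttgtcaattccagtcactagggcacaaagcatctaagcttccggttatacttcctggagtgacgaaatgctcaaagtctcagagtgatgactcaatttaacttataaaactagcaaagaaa
Slfn5, chr11:82951852-82952101, plus strand: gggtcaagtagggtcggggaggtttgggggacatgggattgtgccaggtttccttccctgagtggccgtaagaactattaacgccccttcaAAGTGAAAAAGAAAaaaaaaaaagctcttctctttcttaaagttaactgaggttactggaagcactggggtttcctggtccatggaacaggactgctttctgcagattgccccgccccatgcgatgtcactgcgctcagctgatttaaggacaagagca
Slfn8, chr11:83020811-83021060, minus strand: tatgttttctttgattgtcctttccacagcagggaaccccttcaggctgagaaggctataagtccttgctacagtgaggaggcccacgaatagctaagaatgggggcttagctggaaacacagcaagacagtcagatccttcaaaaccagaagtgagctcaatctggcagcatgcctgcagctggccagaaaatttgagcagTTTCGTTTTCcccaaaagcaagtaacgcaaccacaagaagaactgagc
Slfn9, chr11:82991831-82992080, minus strand: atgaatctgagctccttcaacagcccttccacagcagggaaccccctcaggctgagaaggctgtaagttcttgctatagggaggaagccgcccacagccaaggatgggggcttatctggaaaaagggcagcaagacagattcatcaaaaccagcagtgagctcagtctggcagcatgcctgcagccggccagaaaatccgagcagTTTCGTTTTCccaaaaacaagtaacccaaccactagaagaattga
Slfn2, chr11:83064862-83065111, plus strand: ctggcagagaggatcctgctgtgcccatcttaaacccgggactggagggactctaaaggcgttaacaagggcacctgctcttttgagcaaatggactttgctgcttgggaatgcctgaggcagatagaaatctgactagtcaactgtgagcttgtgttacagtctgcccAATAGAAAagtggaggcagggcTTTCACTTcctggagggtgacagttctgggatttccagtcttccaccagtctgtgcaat

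The wider windows searched ran from 250 bases before to 50 bases after the start, with 8 windows for the 7 genes. GAAANNGAAA was present in 4 of the 8 windows, against 3.44% of 32851 RefSeq windows of the same length. It lay from -155 to -146 in Slfn5, from -45 to -36 in Slfn9 and from -48 to -39 in Slfn8. The other Slfn8 window starts 88 bases downstream and holds the same site. The windows of Slfn1, Slfn2, Slfn3 and Slfn4 held no match to GAAANNGAAA. AANNGAAA occurred in 8 of 8 member windows and in 23.9% of all windows. It was found 3 times in Slfn4, at -225 to -218, -214 to -207 and -152 to -145, and 2 times in Slfn2, at -81 to -74 and -59 to -52. Slfn1 and Slfn3 held 1 match each, at -31 to -24 and -18 to -11. TTCNNNGAA, the letters of the interferon-gamma activated site, was in 0 of 8 member windows and 8.30% of all windows. These matches describe letters only, and no binding was measured.

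**Figure D1:**
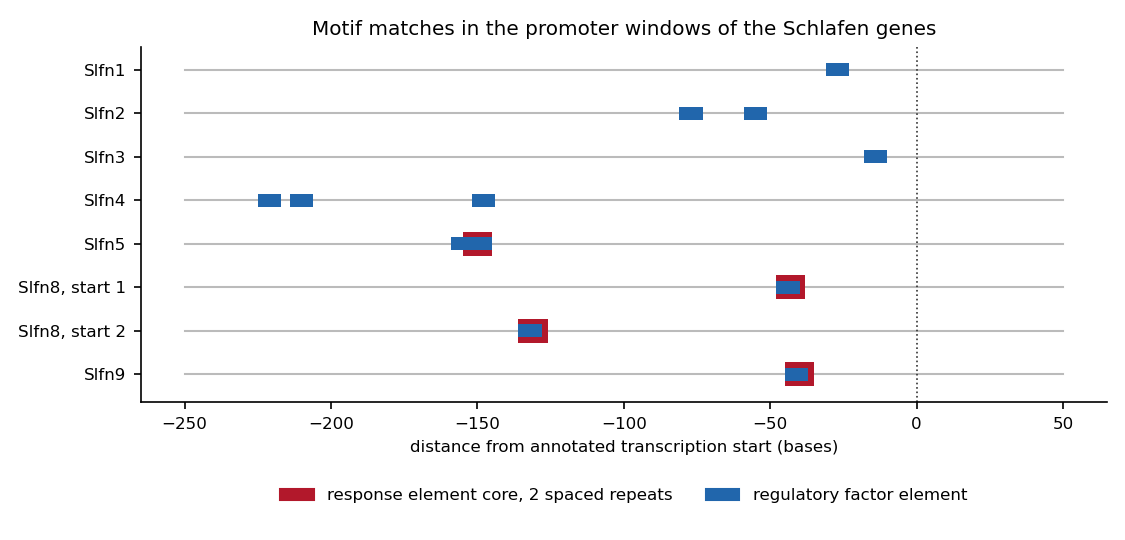
Position of motif matches in the 8 promoter windows of the 7 Schlafen genes, in bases from the annotated transcription start. Wide red bars are GAAANNGAAA and narrow blue bars are AANNGAAA; the red bars fall in the Slfn5, Slfn8 and Slfn9 windows, and blue bars fall in every window.

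Levels are log2 signal relative to the 75th percentile of the same array, and a spot well above background passed the scanner software's own background test. The arrays came from 2 slides of different design, a 4-array slide with ZEB1-OE after and WT after, and an 8-array slide with the other 4 groups. Groups were tested only within a slide. The stroke comparison in wild type, the stroke comparison in ZEB1-OE microglia and ZEB1-KD after over WT after all cross the slides and were not tested, because slide and group cannot be told apart. The scanner software marks spots with uneven or outlying pixels, and marked spots were left out of the main values. They made up 7.49% to 21.7% of spots on the 4-array slide. On the 8-array slide they made up 18.2% to 23.7% in the columns that hold ZEB1-KD after and ZEB1-OE before, against 1.03% to 3.28% in the columns that hold ZEB1-KD before and WT before. Array column and group cannot be told apart in ZEB1-KD after over ZEB1-KD before or in ZEB1-OE before over WT before. The same holds for ZEB1-OE before over ZEB1-KD before. Array row and group cannot be told apart in any comparison within a slide except ZEB1-OE before over ZEB1-KD before, whose arrays share a row.

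Zeb1 itself, the manipulated gene, was not called in any comparison of genotypes. On the 4-array slide 3 of its 4 spots were marked, including both in WT after. In ZEB1-OE after over WT after it therefore has a log2 fold change only with marked spots kept, -0.02 ± 0.29 (SE, adjusted p 0.97, limma). By its brightest probe on each slide its level was -0.08 and 0.56 in ZEB1-OE after, against 0.12 and 0.41 in WT after. On the 8-array slide it was -0.66 and -0.67 in ZEB1-KD after, -0.28 and -0.36 in ZEB1-OE before, -0.11 and -0.79 in ZEB1-KD before, and -0.57 and -0.59 in WT before. Of these spots, 1 in ZEB1-KD after and 1 in ZEB1-OE before were marked. The adjusted p was 0.86 for ZEB1-OE before and 0.95 for ZEB1-KD before, each over WT before (limma). By this probe both ZEB1-OE before arrays lay above both WT before arrays. By the other kept Zeb1 probe of that slide, A_55_P2588577, they overlapped, at -0.42 and -0.31 in ZEB1-OE before (both marked), against -0.40 and -0.64 in WT before. ZEB1-KD before overlapped WT before by both probes, and ZEB1-OE after overlapped WT after. The sources used here do not say where the probes lie relative to the transgene or the knock-down target. The groups are therefore called by their labels throughout. All 12 microglia markers examined, among them P2ry12, Tmem119 and Cx3cr1, were well above background on every array.

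**Figure D2:**
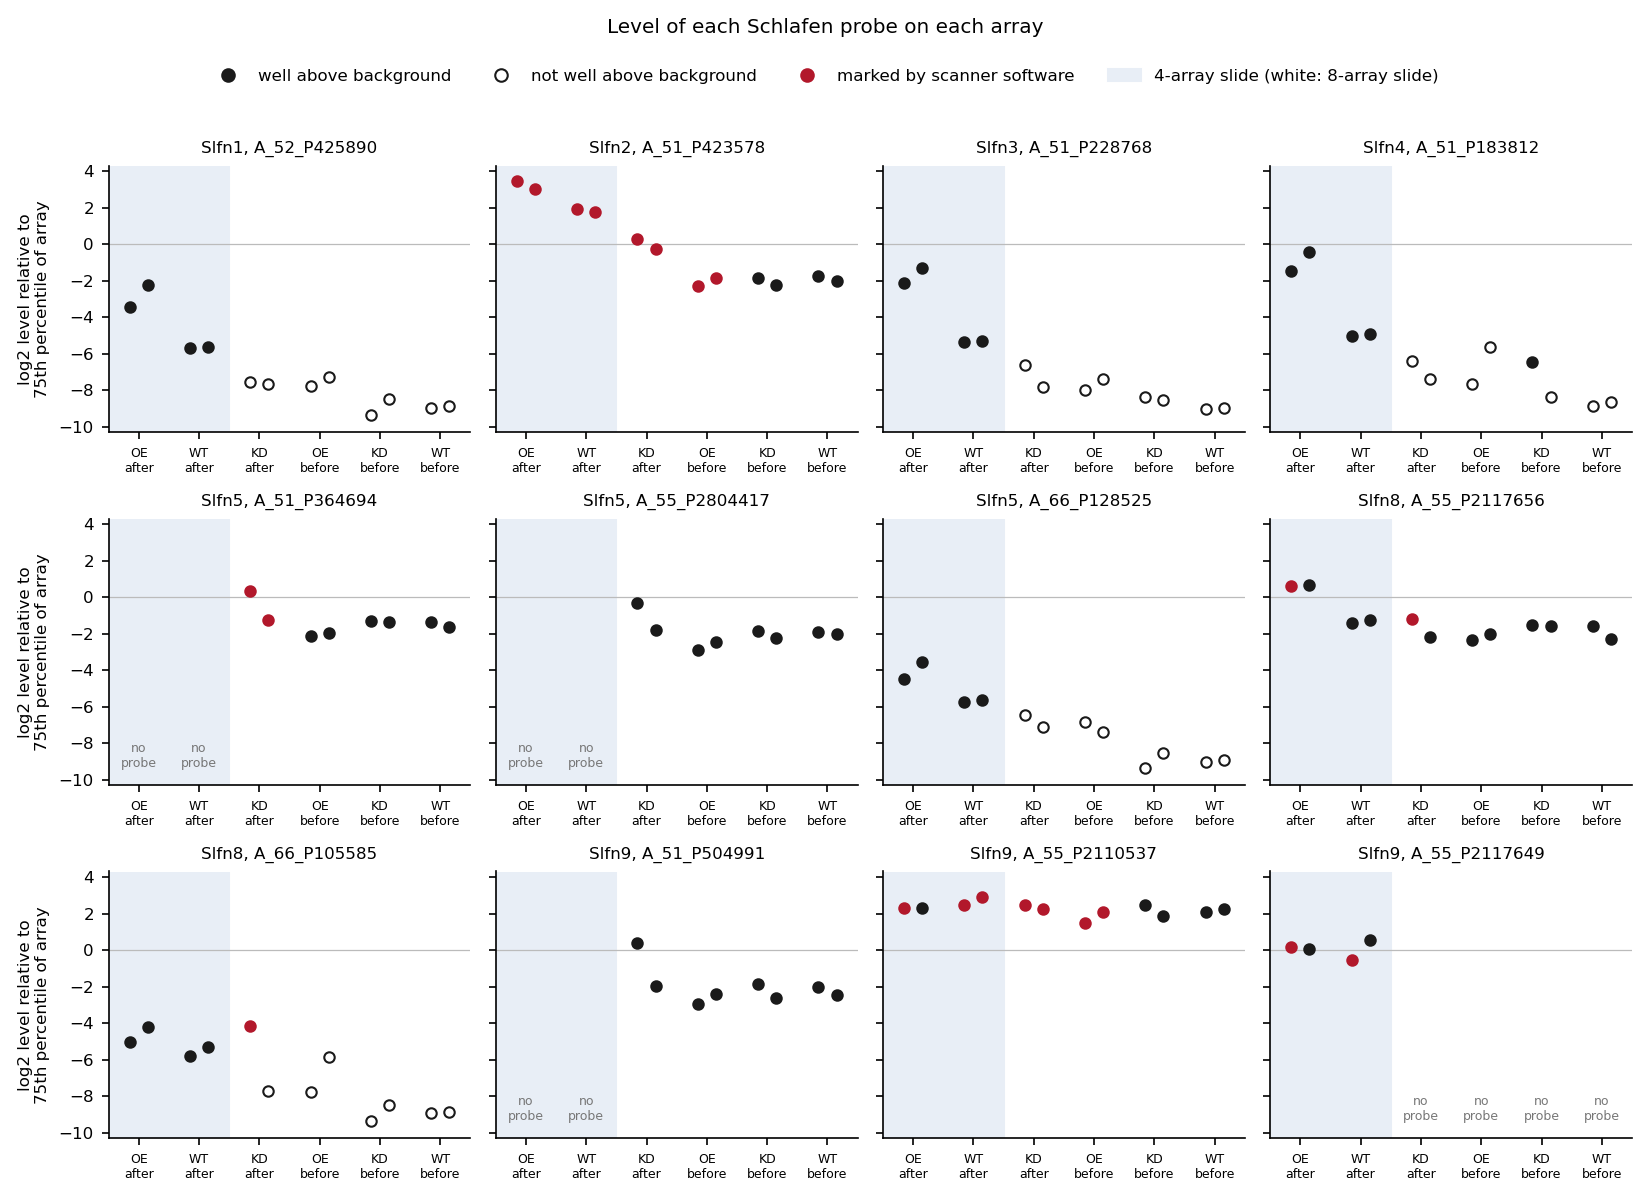
Level of each of the 12 probes of the 7 Schlafen genes on each of the 12 arrays, as log2 signal relative to the array's 75th percentile. Filled points were well above background, open points were not, and red points were marked by the scanner software; Slfn1, Slfn3 and Slfn4 are filled on all 4 arrays of the 4-array slide and open on the 8-array slide, except Slfn4 on 1 ZEB1-KD before array.

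On the 4-array slide all 9 Schlafen probes were well above background on all 4 arrays, so none was kept only through the group where it was high. On the 8-array slide 6 of 11 probes, of Slfn2, Slfn5, Slfn8 and Slfn9, were well above background on all 8 arrays. Slfn1 and Slfn3 were not well above background on any array of that slide, and Slfn4 passed on 1 of 8, a ZEB1-KD before array, at a level of -6.47. The probe that measured Slfn5 on the 4-array slide, A_66_P128525, was also below that standard on all 8 arrays, while 2 other Slfn5 probes, which the 4-array design lacks, were well above background there. The lowest level well above background was between -6.21 and -5.33 for the 4-array slide, and between -7.09 and -5.10 for the 8-array slide. The same Slfn1, Slfn3 and Slfn4 probes thus gave levels on 1 slide and none that can be compared on the other.

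After tMCAO, 6 of the 7 genes were higher in both ZEB1-OE arrays than in either WT array, and Slfn9 was not. How many of all genes separate in this way was not counted, here or in the comparisons below. A lack of overlap between groups of 2 arrays is therefore a description only. Slfn4 showed the widest gap. Slfn4 was at -1.49 and -0.45 in ZEB1-OE after, against -5.05 and -4.91 in WT after, a log2 fold change of 4.0 ± 0.37 (SE, 2 arrays a group), or 16.0-fold. Its neighbour Slfn3 was at -2.11 and -1.29 in ZEB1-OE after, against -5.35 and -5.31 in WT after, a log2 fold change of 3.63 ± 0.32. The groups do not overlap for either gene, and in both the ZEB1-OE arrays differ from each other more than the WT arrays do, by 1.04 against 0.14 for Slfn4 and by 0.82 against 0.04 for Slfn3.

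Of the short forms, Slfn1 was at -3.42 and -2.21 in ZEB1-OE after, against -5.71 and -5.63 in WT after, a log2 fold change of 2.85 ± 0.40. Slfn2 was at 3.45 and 3.04 in ZEB1-OE after, against 1.91 and 1.73 in WT after. All 4 of its spots were marked, so Slfn2 has a fold change only with marked spots kept, 1.42 ± 0.25 on the log2 scale. Both genes again show no overlap between groups.

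Of the long forms, Slfn8 was at 0.61 (marked) and 0.67 in ZEB1-OE after, against -1.40 and -1.27 in WT after, by its brighter probe, A_55_P2117656. Its log2 fold change was 2.01 ± 0.32 from 1 ZEB1-OE array and 2 WT arrays, and 1.98 with the marked spot kept. The dimmer Slfn8 probe, A_66_P105585, was at -5.04 and -4.23 in ZEB1-OE after, against -5.77 and -5.31 in WT after, with a smaller log2 fold change of 0.91 ± 0.34. Slfn5, through its dim probe, was at -4.46 and -3.54 in ZEB1-OE after, against -5.74 and -5.61 in WT after, a log2 fold change of 1.67 ± 0.34. Slfn9 differed from the rest. Its brighter probe was at 2.33 (marked) and 2.29 in ZEB1-OE after, against 2.46 and 2.89 (both marked) in WT after, a log2 fold change of -0.37 ± 0.25 with marked spots kept. Its other probe, A_55_P2117649, was at 0.18 (marked) and 0.05 in ZEB1-OE after, against -0.53 (marked) and 0.53 in WT after, and there the groups overlap. A further Slfn9 probe, A_51_P504991, is not on this design, and below it gave another fold change than the brighter probe.

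Over all genes in this comparison, 1.58% of 22072 were called higher at a limma adjusted p under 0.05, and of the 5 Schlafen genes with a value 4 were called higher, Slfn1, Slfn3, Slfn4 and Slfn8. With marked spots kept, 1.95% of 27935 genes and 6 of the 7 Schlafen genes were called higher, Slfn2 and Slfn5 in addition. The members' median log2 fold change was 2.85, against -0.11 over all genes tested. The levels of Slfn1 and Slfn5 in WT after lie close to the lowest level well above background. With normexp background correction the log2 fold change was 0.77 for Slfn1 (not called), 1.60 for Slfn3, 2.23 for Slfn4, 0.24 for Slfn5 and 1.85 for Slfn8, and averaging both Slfn8 probes gave 1.22 (not called). Without either WT after array Slfn1, Slfn2 and Slfn8 were not called.

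**Figure D3:**
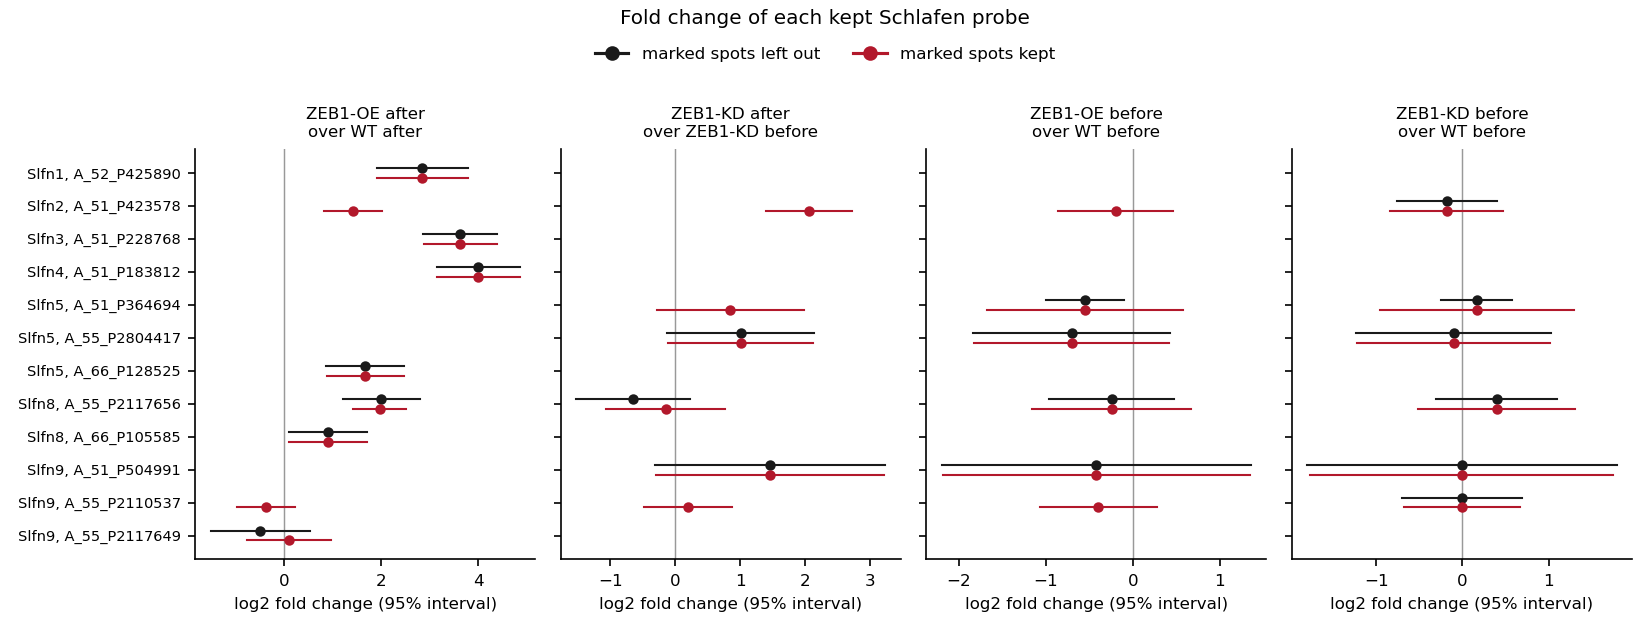
Log2 fold change of each kept Schlafen probe with its 95% interval in 4 comparisons, with marked spots left out (black) and kept (red). In ZEB1-OE after over WT after, Slfn4 sits at 4.0 and Slfn9 near 0; in ZEB1-KD after over ZEB1-KD before, Slfn2 sits at 2.06 with an interval above 0, and the intervals of the Slfn5, Slfn8 and Slfn9 probes include 0.

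In ZEB1 knock-down microglia, Slfn2 was called higher after tMCAO only with marked spots kept, while Slfn5, Slfn8 and Slfn9 did not pass the test. Array position and group cannot be told apart in this comparison. Slfn2 was at 0.28 and -0.28 in ZEB1-KD after (both marked), against -1.86 and -2.25 in ZEB1-KD before, and the groups do not overlap. With marked spots kept, its log2 fold change was 2.06 ± 0.27 (SE, 2 arrays a group; 95% interval 1.40 to 2.71), or 4.16-fold, with a limma adjusted p of 0.0083. In this setting 10.1% of 30525 genes were called higher, and 1 of the 4 Schlafen genes with a value was. The Slfn2 call was lost without the second ZEB1-KD before array (adjusted p 0.061), and the adjusted p ran from 0.0017 to 0.061 over the alternatives. With marked spots left out, 16.0% of 24646 genes were called in either direction. Slfn8 was then the sole Schlafen gene with a value, and it was not called.

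The long forms in the same comparison differed between the ZEB1-KD after arrays. Slfn5 by probe A_51_P364694 was at 0.32 and -1.27 in ZEB1-KD after (both marked), against -1.31 and -1.34 in ZEB1-KD before, a log2 fold change of 0.85 ± 0.47 (adjusted p 0.25, limma, marked spots kept). Slfn5 by probe A_55_P2804417, with no marked spot, was at -0.31 and -1.80 in ZEB1-KD after, against -1.87 and -2.25 in ZEB1-KD before, a log2 fold change of 1.0 ± 0.47 (adjusted p 0.18, limma). In both probes 1 ZEB1-KD after array stands high and the other lies at or just above the ZEB1-KD before level. By probe A_51_P364694 the log2 fold change was 1.64 from the array labelled replicate 1 alone (adjusted p 0.012) and 0.06 from the other alone (adjusted p 0.87). In both of these fits the lone array is assumed to vary like the other groups, and no call is taken from them.

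Slfn9 depended on the probe. Probe A_55_P2110537 was at 2.49 and 2.23 in ZEB1-KD after (both marked), against 2.47 and 1.86 in ZEB1-KD before, a log2 fold change of 0.19 (95% interval -0.49 to 0.87, marked spots kept). Probe A_51_P504991, which is not on the other design, was at 0.39 and -1.97 in ZEB1-KD after, against -1.86 and -2.64 in ZEB1-KD before, a log2 fold change of 1.46 ± 0.74 (adjusted p 0.21, limma). The first probe overlaps between groups, and the second is again high on the same ZEB1-KD after array as Slfn5. Slfn8 was at -1.20 (marked) and -2.20 in ZEB1-KD after, against -1.51 and -1.59 in ZEB1-KD before, a log2 fold change of -0.65 ± 0.35 from 1 ZEB1-KD after array (adjusted p 0.25, limma) and of -0.15 with the marked spot kept. Slfn8 levels in ZEB1-KD after lie on either side of those before tMCAO. The dimmer Slfn8 probe, A_66_P105585, was well above background on 1 of 8 arrays of this slide, a marked spot at -4.17 on the ZEB1-KD after array labelled replicate 1, and was not tested there. Slfn10-ps, a family pseudogene measured on this slide, was at 0.02 and -1.76 in ZEB1-KD after, against -2.20 and -2.91 in ZEB1-KD before, with a log2 fold change of 1.69 ± 0.60 (adjusted p 0.0996, limma).

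The ZEB1-KD after array labelled replicate 1 was above the other in 6 of the 6 kept Schlafen probes, by a median of 1.24 on the log2 scale, against a median difference of -0.02 over 30525 genes. The gap was 2.36 for Slfn9 probe A_51_P504991, 1.58 and 1.49 for the Slfn5 probes and 0.26 for Slfn9 probe A_55_P2110537. The 32 interferon-stimulated genes split the same way: of 29 kept, 28 were higher on that array, by a median of 1.32. The lymphocyte markers also differed between these arrays, with 8 of 9 higher and a median difference of 1.25, while 11 of 12 microglia markers were higher by a median of 0.31. Only 4 of the 12 lymphocyte markers listed were well above background on both of these arrays, so their difference includes spots near background. The part of these markers in the Schlafen values was not tested. The authors' deposited value table gives these 2 samples the other way round from the scanner files (r = 0.975 with the file of the same sample), so which of them is replicate 1 is uncertain. Values over the group are not touched by that. Replicates of the other groups of this slide also split mostly one way, by smaller medians. Replicate 1 was higher in 6 of 6 Schlafen probes in ZEB1-KD before (median 0.39), 5 of 6 in WT before (0.27) and 0 of 6 in ZEB1-OE before (-0.44). Of the 29 interferon-stimulated genes 27, 23 and 5 were higher in the same order.

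**Figure D4:**
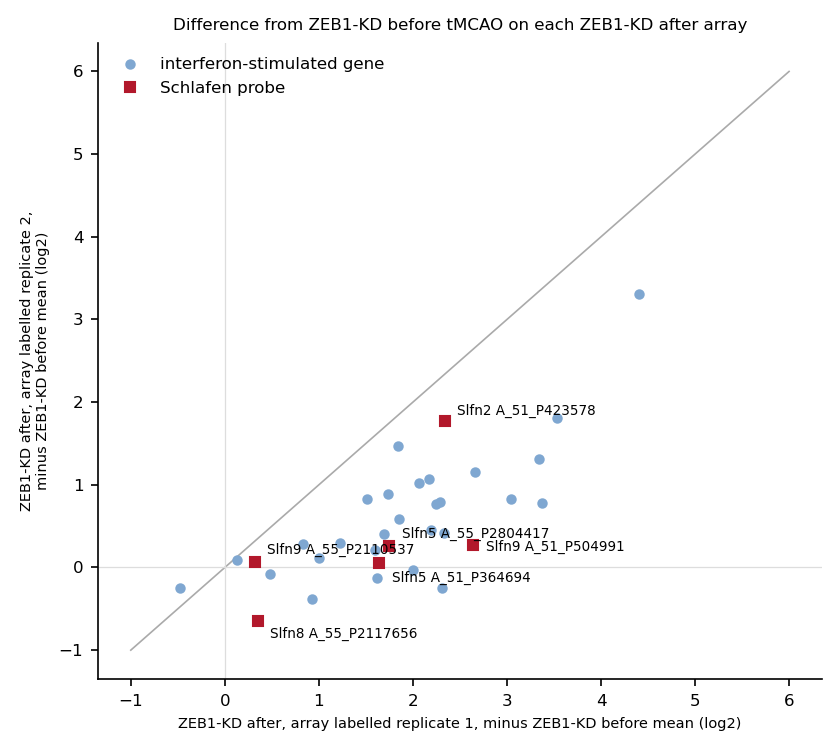
Difference from the ZEB1-KD before mean, in log2 units, on the ZEB1-KD after array labelled replicate 1 (horizontal) and replicate 2 (vertical), with marked spots kept. Red squares are the 6 kept Schlafen probes and blue points are 29 interferon-stimulated genes; the diagonal marks equal values, and all 6 squares lie below it.

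Before tMCAO no Schlafen gene was called between genotypes, and no gene of any kind was called (0.0% of 25162 genes for ZEB1-OE before over WT before, 0.0% of 30293 for ZEB1-KD before over WT before, and 0.0% of 25167 for ZEB1-OE before over ZEB1-KD before, limma). At an unadjusted p under 0.05 the counts over all genes were 2712, 2651 and 3343 in the same order. Slfn5 by probe A_51_P364694 was at -2.11 and -1.96 in ZEB1-OE before, against -1.35 and -1.64 in WT before. The groups do not overlap, and the log2 fold change was -0.55 ± 0.17 (95% interval -0.99 to -0.11, adjusted p 0.40, limma). With marked spots kept, which adds the spread of ZEB1-KD after to the same fit, the SE was 0.47 and the interval was -1.69 to 0.59. Against ZEB1-KD before, at -1.31 and -1.34, the Slfn5 log2 fold change in ZEB1-OE before was -0.72 ± 0.17 (adjusted p 0.28, limma), with an interval of -1.85 to 0.42 when marked spots were kept. The second Slfn5 probe was also lower in both ZEB1-OE before arrays, at -2.89 and -2.44, against -1.92 and -2.01 in WT before, with a 95% interval of -1.83 to 0.43.

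Slfn8 was at -2.37 and -2.01 in ZEB1-OE before, -1.51 and -1.59 in ZEB1-KD before, and -1.59 and -2.30 in WT before. Its log2 fold change was -0.24 (95% interval -0.96 to 0.48) for ZEB1-OE before over WT before, 0.40 (-0.31 to 1.11) for ZEB1-KD before over WT before, and -0.64 (-1.36 to 0.08) for ZEB1-OE before over ZEB1-KD before. Slfn2 was at -2.29 and -1.85 in ZEB1-OE before (both marked), -1.86 and -2.25 in ZEB1-KD before, and -1.75 and -2.0 in WT before. The Slfn2 log2 fold change for ZEB1-KD before over WT before was -0.18 (95% interval -0.76 to 0.40), and with marked spots kept it was -0.20 for ZEB1-OE before over WT before (-0.86 to 0.46). All 3 genotypes overlap for Slfn2. Slfn9 by its bright probe was at 1.49 and 2.07 in ZEB1-OE before (both marked), 2.47 and 1.86 in ZEB1-KD before, and 2.10 and 2.25 in WT before, with a log2 fold change of -0.01 (95% interval -0.71 to 0.69) for ZEB1-KD before over WT before. Slfn9 by probe A_51_P504991 was at -2.94 and -2.39 in ZEB1-OE before, -1.86 and -2.64 in ZEB1-KD before, and -2.01 and -2.48 in WT before. Its log2 fold change was -0.42 (95% interval -2.19 to 1.36) for ZEB1-OE before over WT before and -0.01 (-1.80 to 1.79) for ZEB1-KD before over WT before.

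The rest of the interferon pathway was read from 2 lists. Of 32 interferon-stimulated genes, which encode antiviral effectors such as the Ifit and Oas proteins, 20 had a value in ZEB1-OE after over WT after; 12 were called higher and 0 lower, and the median log2 fold change was 2.22. Ifit2, which binds viral RNA, was at 4.18 ± 0.32 (1 ZEB1-OE array), and Oas3, an oligoadenylate synthetase, at 3.79 ± 0.43, both as log2 fold changes. With marked spots kept, 23 of 30 were called higher. Over all genes, 1.58% of 22072 were called higher, and 1.95% of 27935 with marked spots kept. The median log2 fold changes over all genes were -0.11 and -0.10 in the same order. Of 19 ligands, receptors, kinases and factors of the pathway, 11 had a value and 1 was called higher, Socs1, a feedback inhibitor of JAK kinases, with a log2 fold change of 2.74 ± 0.34 (1 ZEB1-OE array). With marked spots kept, 4 of 18 were called higher, including Irf7, the factor that amplifies type I interferon production, at 3.89 ± 0.34. This comparison is the one on which the family was chosen, so these too are a description. Without the first or the second WT after array 2 or 3 interferon-stimulated genes were called, and pathway calls numbered 3 without the first ZEB1-OE after array and 0 without any other.

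In ZEB1-KD after over ZEB1-KD before, 3 of 19 interferon-stimulated genes with a value were called higher and 0 lower, where 10.1% of all 24646 genes were called higher. Their median log2 fold change was 0.93, against 0.04 over all genes tested. They were Ifi204, a DNA sensor, at 4.41 ± 0.37 (1 ZEB1-KD after array), Zbp1, a nucleic acid sensor, at 2.67 ± 0.54, and Oas2 at 1.17 ± 0.24, as log2 fold changes. With marked spots kept, 6 of 29 were called higher, against 10.1% of 30525 genes, and the median was 1.22. The 3 calls became 1 without the first ZEB1-KD after array, 9 without the second, and 1 without either ZEB1-KD before array. Of the pathway genes, 4 of 15 were called higher, beside the same 10.1% of all genes, and 0 lower: Socs3, another feedback inhibitor (2.67 ± 0.31, 1 ZEB1-KD after array), Irf8, a factor of the myeloid lineage (1.76 ± 0.29), Irf9 (1.30 ± 0.24) and Ifngr1, a chain of the interferon-gamma receptor (0.68 ± 0.14). These 4 calls became 1 without the first ZEB1-KD after array, 7 without the second, and 0 without either ZEB1-KD before array. Before tMCAO, 0 genes of either list were called in any comparison of genotypes, and the medians of the interferon-stimulated genes were 0.02 for ZEB1-OE over WT, -0.06 for ZEB1-KD over WT and -0.03 for ZEB1-OE over ZEB1-KD.

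**Figure D5:**
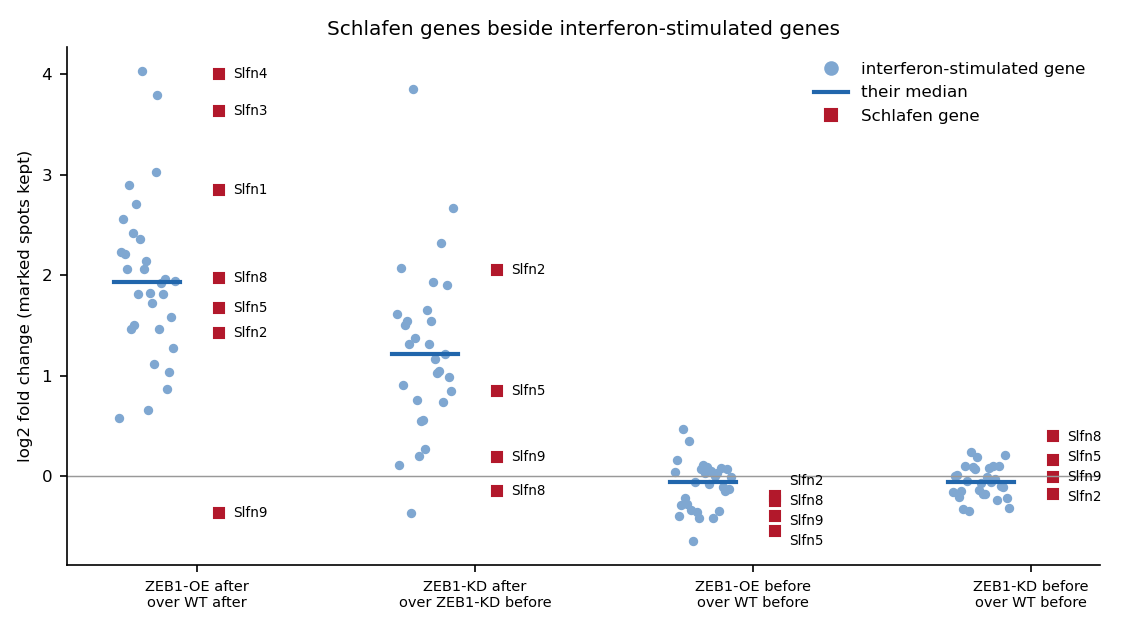
Log2 fold change of the Schlafen genes (red squares) beside the interferon-stimulated genes (blue points, bar at their median) in 4 comparisons, with marked spots kept. The medians of the interferon-stimulated genes are 1.94 in ZEB1-OE after over WT after and 1.22 in ZEB1-KD after over ZEB1-KD before, and every Schlafen value before tMCAO lies within 1 log2 unit of 0.

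Markers of other cells were read beside the Schlafen genes as summed levels and as calls per gene. In these bulk samples fewer cells of a type and less RNA per cell cannot be told apart. The summed level of a marker list is the sum over its genes of signal divided by the array's 75th percentile. The monocyte list, with 7 of 8 genes on the 4-array design and all 7 well above background, summed to 41.3 to 43.0 in ZEB1-OE after, against 28.9 to 33.6 in WT after. The neutrophil list, 10 of 11 on the design and all 10 well above background, summed to 87.2 on both ZEB1-OE after arrays, against 71.2 to 82.8 in WT after. The T, B and NK lymphocyte list, 11 of 12 well above background and Cd79a not, summed to 14.1 to 24.5 in ZEB1-OE after, against 12.6 to 13 in WT after. The endothelial and mural list, 10 of 10 well above background, ran the other way, at 16.2 to 19.0 in ZEB1-OE after, against 32.5 to 33.5 in WT after. The microglia list summed to 123 to 134 in ZEB1-OE after, against 135 in both WT after arrays. Gene by gene, few markers were called: 0 of 6 monocyte, 1 of 4 neutrophil, 0 of 8 lymphocyte, 0 of 8 endothelial and mural and 0 of 7 microglia genes with a value. Keeping marked spots, 1 of 7 monocyte and 1 of 10 neutrophil genes were called higher, and 3 of 10 endothelial and mural genes were called lower. Over all genes, 1.58% of 22072 were called higher. With marked spots kept, 1.95% of 27935 were called higher and 349 genes were called lower.

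On the 8-array slide the monocyte list, 8 of 8 well above background in both groups, summed to 23.0 to 25.2 in ZEB1-KD after, against 9.66 to 9.89 in ZEB1-KD before. The microglia list summed to 45.4 to 55.1 in ZEB1-KD after, against 29.4 to 30.8 in ZEB1-KD before, and the endothelial and mural list to 24.9 to 25.3 in ZEB1-KD after, against 15.4 to 16.3 in ZEB1-KD before. The neutrophil list, 8 of 11 well above background in ZEB1-KD after and 10 of 11 in ZEB1-KD before, summed to 9.37 to 11.4 in ZEB1-KD after, against 6.20 to 7.05 in ZEB1-KD before. The lymphocyte list, 4 of 12 well above background in ZEB1-KD after and 7 of 12 in ZEB1-KD before, summed to 0.594 to 1.21 in ZEB1-KD after, against 0.741 to 0.855 in ZEB1-KD before, and the groups overlap. Gene by gene, 2 of 7 monocyte, 4 of 7 microglia, 3 of 7 endothelial and mural and 2 of 7 neutrophil genes with a value were called higher and none lower, while of 9 lymphocyte genes 1 was called higher and 2 lower. Over all 24646 genes, 10.1% were called higher and 16.0% in either direction. With marked spots kept, 5 of 8 monocyte, 8 of 12 microglia, 6 of 10 endothelial and mural and 2 of 10 neutrophil genes were called higher. None of these was called lower, and of 9 lymphocyte genes 1 was called higher and 2 lower. The median log2 fold change of the monocyte genes was then 2.03, and 10.1% of 30525 genes were called higher. The neutrophil sum and the median of its genes had opposite signs, since 3 of 7 genes were positive and their median log2 fold change was -0.25 (0.36 over 10 genes with marked spots kept). The part of any of these cells in the Schlafen values was not tested.

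Genes with the most similar pattern to Slfn2 and Slfn5 were sought over the 8 arrays of the 8-array slide, by Pearson correlation of log2 levels with marked spots kept. These correlations are descriptions, since the arrays fall into groups and share a slide. The 5 nearest Slfn2 were Lrr1 (0.998), Ifi204 (0.997), Cenpi (0.995), Osm (0.995) and Lcp2 (0.993). On the 4-array slide, which the correlation did not use, their log2 fold changes in ZEB1-OE after over WT after were -0.69, 1.51, 0.44, 1.52 and 1.18 in the same order, against 1.42 for Slfn2. The 5 nearest Slfn5 were Adam17 (0.983), Dnajb14 (0.978), Lipa (0.975), Usp25 (0.972) and Ncapg2 (0.968). Their log2 fold changes in ZEB1-OE after over WT after were 0.38, -0.32, -0.81, 1.36 and 1.08, against 1.67 for Slfn5. That Slfn5 value comes from another probe, A_66_P128525, than the one correlated, A_51_P364694. Probe A_66_P128525 was not well above background on any array of the 8-array slide. Slfn4 was not sought, because its probe was not kept on that slide. Of the relatives outside the 7 genes, Slfn14 and Slfnl1 were not well above background on any of the 12 arrays.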

How the data were processed

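Single-colour Agilent arrays of 12 microglia samples were analysed. Agilent Feature Extraction 11.5.1.1 made the scanner files, per the file headers, while the submitters' processing notes name version 9.1. The deposited gProcessedSignal intensity is background-subtracted by that software, and the deposited marks and background flags (other columns) come from it too. The authors' deposited value table holds log2 values matching the scanner files, shifted to each array's 75th percentile (column medians -3.75 to -3.04).

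From these, log2 intensity minus each array's 75th percentile was computed. A probe was kept if 1 or more groups of its slide had it well above background throughout. Marked spots were left out, a gene was its brightest kept probe, and limma 3.58.1 (R 4.3.3) was fitted over all kept genes of a slide, with Benjamini-Hochberg adjustment at 0.05. The code was tested on simulated data. Probes were named through RefSeq accessions (48.1% of 55681 probes on the 4-array design, 59.7% of 56605 on the 8-array design). RefSeq is on GRCm38.p6 and the file headers name another build, so no probe coordinates are given.

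The 7 members, the lists and the tests were chosen with earlier results of these data known. Named were every member with all its probes, its relatives Slfn14, Slfn10-ps and Slfnl1, Zeb1, the 5 genes most like Slfn2 and Slfn5, and at most 4 examples a list. The number of arrays limits the precision. Normexp, with an offset of 50, ran on the median signals because the files hold no mean signal, chosen after seeing the data. Fits of each probe on its own, and fits with marked spots kept and 1 other choice changed, were also added after seeing the data. Other alternatives were quantile normalization, no filter on dim probes, the mean of a gene's probes, the value table, the replicate number as a block, the compared groups alone, and each replicate left out in turn.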

Additional observations from a re-analysis of the deposited data

How the results depend on the processing

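Of 268 values of Schlafen genes under alternatives, 236 kept their direction and side of the threshold, 16 lost a call, 3 gained a call and 13 changed sign. Genes called in ZEB1-OE after over WT after numbered 510, against 895 with marked spots kept, 332 with normexp, 313 with quantile normalization, 0 with no filter on dim probes (4123 at an unadjusted p under 0.05) and 54 to 1079 with a replicate left out. Without the filter no Schlafen gene was called there in limma. Genes called in ZEB1-KD after over ZEB1-KD before numbered 3940, against 7056 with normexp, 1715 with no filter, 2013 with the compared groups alone and 475 to 3308 with a replicate left out. With quantile normalization 6, 1 and 4 genes were called in ZEB1-OE before over WT before, ZEB1-KD before over WT before and ZEB1-OE before over ZEB1-KD before, and with a replicate left out 0 to 2 and 0 to 3 in the first pair. The cause was not tested. Sign changes were all in values that passed no threshold. With a replicate left out, log2 fold changes ran from -0.42 to 0.021 for Slfn2 and -0.60 to 0.11 for Slfn8 in ZEB1-OE before over WT before, from -0.38 to 0.019 for Slfn2 and -0.31 to 0.30 for Slfn9 in ZEB1-KD before over WT before, from -0.24 to 0.20 (0.18 without ZEB1-KD before replicate 1) for Slfn2 in ZEB1-OE before over ZEB1-KD before, and from -0.11 to 0.49 for Slfn9 in ZEB1-KD after over ZEB1-KD before. Slfn9 was at 0.036 with normexp and 0.026 with quantile normalization in ZEB1-KD before over WT before, and at -0.19 with normexp in ZEB1-KD after over ZEB1-KD before. Slfn2 was at 0.0022 in the value table in ZEB1-OE before over ZEB1-KD before, and Slfn9 probe A_55_P2117649 at 0.11 with marked spots kept in ZEB1-OE after over WT after. Replicate numbers share only a number: with the replicate block 461, 0, 0, 0 and 4137 genes were called, and the correlation of same-numbered samples was 0.05 to 0.17. Under the block Slfn8 lost its call in ZEB1-OE after over WT after, and no other Schlafen gene did. Signal close to background limits Slfn1, Slfn3, Slfn4 and the dim probe of Slfn5.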
